A study of Mus musculus with 12 samples.

Results

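The miRNAs described here are those of 6 mouse precursors that are used as readouts of inflammation and of leukocytes in a tissue, named in the files mmu-mir-21a, mmu-mir-146a, mmu-mir-146b, mmu-mir-155, mmu-mir-223 and mmu-mir-150. They were chosen by name, and every read listed under those names was taken, out of 1532 precursors seen in the series. Reads were found for all 6 precursors and for 11 of their mature arms (an arm is the 5p or the 3p strand of the hairpin), out of 2143 arms with a read. No read of miR-146a-3p was listed.

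The series holds small RNA libraries from the retina of db/db mice of KsJ background, a strain with a defective leptin receptor, used as a model of obesity with diabetes. All 12 libraries carry that genotype. The 6 model libraries are taken as db/db retina without the drug, and the 6 Keluoxin libraries come from db/db mice given Keluoxin, a capsule of traditional Chinese medicine. The labels give no dose, duration, age or sex, do not say that each library is a separate animal, and no non-diabetic retina was analysed here. The spread behind each p-value is therefore that between libraries and may be technical. The protocol names an exosome pellet as the starting material of the extraction, whereas tissue and source are labelled retinal.

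A mature miRNA pairs with target mRNAs through its seed, bases 2 to 8 from its 5′ end, and lowers their output. miR-146a and miR-155 are induced by NF-κB signalling downstream of Toll-like receptors, and miR-146a dampens that signalling by targeting Irak1 and Traf6 while miR-155 favours inflammatory responses. miR-223 is made mainly by neutrophils and other myeloid cells and miR-150 mainly by mature lymphocytes, so both are read as traces of blood leukocytes. miR-21a is broadly expressed and rises in many kinds of injury and fibrosis.

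The mature sequences of these arms, as RefSeq gives them on GRCm38.p6 with the seed in capitals, show which of them can be told apart by their reads and which share targets. They were matched by name for 11 member arms, miR-146a-3p included, and 5 hairpins in the deposited files were identical to the RefSeq ones. For miR-150-5p and the mir-150 hairpin the RefSeq table used held no sequence.
miR-21a-5p: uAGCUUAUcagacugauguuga
miR-146a-5p: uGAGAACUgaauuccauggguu
miR-146b-5p: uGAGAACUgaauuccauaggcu
miR-146b-3p: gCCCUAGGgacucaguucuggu
miR-155-5p: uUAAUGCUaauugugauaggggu
miR-223-3p: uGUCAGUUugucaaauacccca
miR-223-5p: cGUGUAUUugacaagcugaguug
The 5p arms of mir-146a and mir-146b have the same seed, GAGAACU, and 20 identical bases of 22. Their differences are G18A and T21C, with the base of miR-146a-5p first and positions counted from 1 at the 5′ end. miR-21a-5p shares its seed, AGCUUAU, with 1 other mouse miRNA of the RefSeq table, miR-21c, and none of the other arms printed has a seed that another mouse miRNA of the table holds.

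The 6 hairpins lie at 6 separate loci of GRCm38. mir-21a (chr11:86584067-86584158, minus strand) lies in an exon of Vmp1 in the GENCODE annotation, and mir-146b (chr19:46342762-46342870, plus strand) in an intron of Mfsd13a. mir-155 (chr16:84714140-84714204, plus strand) lies in an exon of its host transcript Mir155hg, and mir-223 (chrX:96242817-96242926, plus strand) in an exon of the noncoding transcript F630028O10Rik. mir-146a (chr11:43374397-43374461, minus strand) and mir-150 (chr7:45121757-45121821, plus strand) overlap no other annotated gene.

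The libraries held 1933375 to 7892147 counted reads. The retinal label was checked against marker miRNAs: the photoreceptor arm miR-182-5p averaged 188167 ± 18159 normalized CPM (reads of an arm scaled to library size) over the model libraries and 117508 ± 27742 over the Keluoxin libraries (SD, n = 6 each), and the neuronal arm miR-124-3p at 47902 ± 8217 and 36126 ± 7885. Among marker lists, 3 of 6 photoreceptor arms fell, 1 of 2 endothelial arms fell, 1 of 3 erythroid arms rose and the single liver arm, miR-122-5p, rose (edgeR quasi-likelihood test, Benjamini-Hochberg adjusted over 789 arms). The 4 tested muscle arms did not pass, but Keluoxin replicate 4 stood apart in them, with miR-1a-3p at 1664 CPM where the other 11 libraries lay between 244 and 426 CPM. Over all 789 arms tested, 142 passed that test at an adjusted p under 0.05, which is 18%, with 67 higher and 75 lower in Keluoxin. That split depended on the scaling, with 83 higher and 23 lower when libraries were scaled by total counted reads.

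No member arm passed the test of level. Of the 11 arms with a read, 6 had enough reads to be tested, and 0 of these 6 passed the edgeR test against the background of 18%. The 2 groups of libraries overlapped in each of the 6, whereas 7.98% of all tested arms had groups without overlap. An unadjusted p under 0.05 was reached by 0 of the 6, and DESeq2 also called 0. The median log2 fold change of Keluoxin over model was -0.14 over the 6 member arms and -0.04 over all arms tested. It was -0.18 over the 512 tested arms of annotated precursors, to which the members belong. The tested arms are those with more reads, and the other 5 are described by their reads alone.

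**Figure D1:**
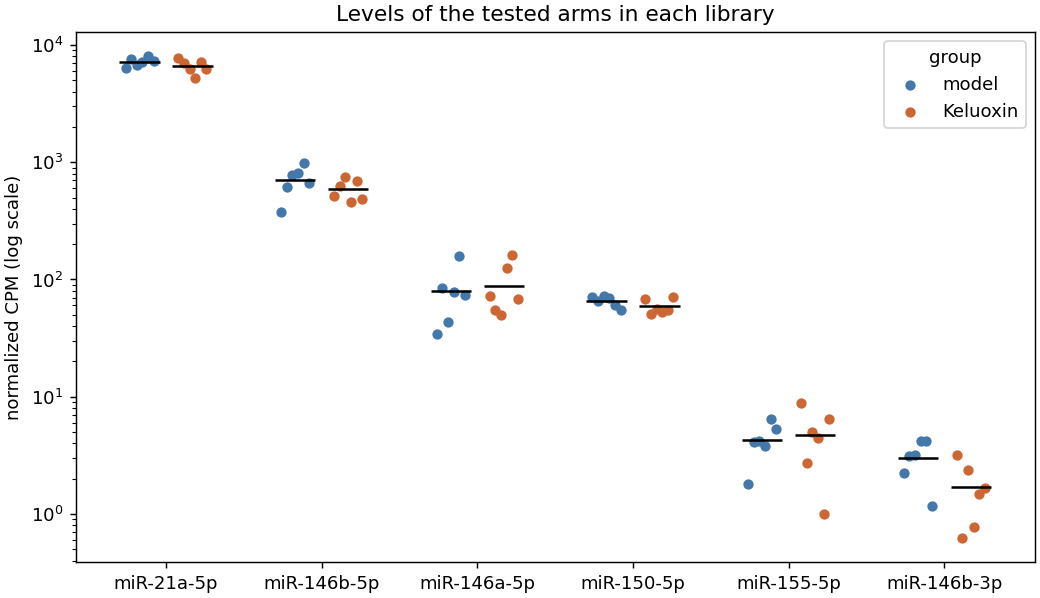
Normalized CPM (log axis) of the 6 tested member arms in each of the 12 libraries, with points for libraries and bars for the mean of the 6 libraries of a group. The groups overlap for each arm, and the arms span from 7208 CPM for miR-21a-5p to 3.00 CPM for miR-146b-3p in the model mean.

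miR-21a-5p dominated the group. It held 89.3% of all reads of the member arms and was the 26th most abundant of the 789 tested arms. Its level ran from 6419 CPM over a median of 7254 to 8013 CPM in model libraries, and from 5190 over 6685 to 7754 CPM in Keluoxin libraries. The ranges overlap, with Keluoxin replicate 4 lowest of all 12. The means were 7208 ± 564 and 6630 ± 910 CPM (SD, n = 6 each), a log2 fold change of -0.12 with a standard error of 0.10 and an edgeR adjusted p of 0.398. The 95% interval, from -0.35 to 0.10, is the narrowest of the 6 arms.

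The passenger strand of mir-21a was all but absent. miR-21a-3p had 22 reads in model and 16 in Keluoxin libraries, so that 99.99% of the precursor's reads came from the 5p arm. It was seen in 5 of 6 libraries of each group and was not tested. Of its 38 reads, 13 carried G6C, cytosine being the base of the human ortholog, and whether these come from mouse RNA was not tested.

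The miR-146 paralogs differed in abundance. miR-146b-5p stood above miR-146a-5p in 12 of 12 libraries, at a mean 7.71-fold higher. miR-146b-5p ran from 379 over a median of 724 to 985 CPM in model libraries and from 462 over 568.1 to 749 CPM in Keluoxin libraries. All Keluoxin values lie within the range of the model group. Its log2 fold change was -0.27 with a standard error of 0.21, a 95% interval of -0.72 to 0.19 and an edgeR adjusted p of 0.354.

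miR-146a-5p had a wide range in both groups. It ran from 34.4 over a median of 76.0 to 160 CPM in model libraries, and from 50.2 over 70.7 to 161 CPM in Keluoxin libraries. A single library stood high in the model group (replicate 5), and replicates 4 and 5 stood high in the Keluoxin group, with 125 and 161 CPM. The log2 fold change was 0.16 with a standard error of 0.39 and an edgeR adjusted p of 0.778. Its 95% interval, from -0.69 to 1.02, includes a doubling as well as no change, and without Keluoxin replicate 5 the estimate was -0.09.

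Because both paralogs carry the same seed, their ratio was compared within each library, where scaling does not enter. miR-146a-5p made up 9.72% ± 3.03 of the reads of the pair in model and 13.2% ± 5.87 in Keluoxin libraries (SD, n = 6 each). The lowest share was 5.27% in model replicate 3 and the highest were 21.2% and 18.9% in Keluoxin replicates 4 and 5. The log2 ratio differed by 0.44 between the groups (exact two-sided permutation test over all assignments of the libraries, p = 0.277, smallest possible p 0.00216), so the difference did not exceed the spread. Leaving out 1 library at a time gave 0.25 to 0.65.

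Some reads align to both 5p arms. Of the miR-146a-5p reads, 19.3% also aligned to another annotated arm and 34.8% to any other arm, predicted precursors included, against 2.65% and 18.9% for miR-146b-5p. Reads shared by both were divided equally. With base 18 used to tell the paralogs apart, miR-146a-5p held 8.85% ± 3.18 in model and 12.7% ± 6.12 in Keluoxin libraries.

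The 3p arm of mir-146b was the member arm with the largest estimated change. miR-146b-3p ran from 1.17 over a median of 3.14 to 4.17 CPM in model libraries and from 0.625 over 1.57 to 3.20 CPM in Keluoxin libraries, which overlap. These levels rest on 100 reads in model and 51 in Keluoxin libraries. The log2 fold change was -0.84 with a standard error of 0.42, a 95% interval of -1.75 to 0.07 and an edgeR adjusted p of 0.167. The choice of strand, as the log2 ratio of 5p to 3p reads of mir-146b, was 7.88 ± 0.59 in model and 8.52 ± 0.85 in Keluoxin libraries. That difference of 0.65 (standard error 0.39) did not pass (limma adjusted p = 0.255), while 19.2% of the precursors tested in this way did. mir-146b met the minimum of 10 reads on each arm mostly in model libraries. Its 3p arm had 10, 19, 22, 23, 22 and 4 reads in model replicates 1 to 6. In Keluoxin replicates 1 to 6 it had 16, 3, 14, 6, 3 and 9, so those ratios rest on few reads.

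**Figure D2:**
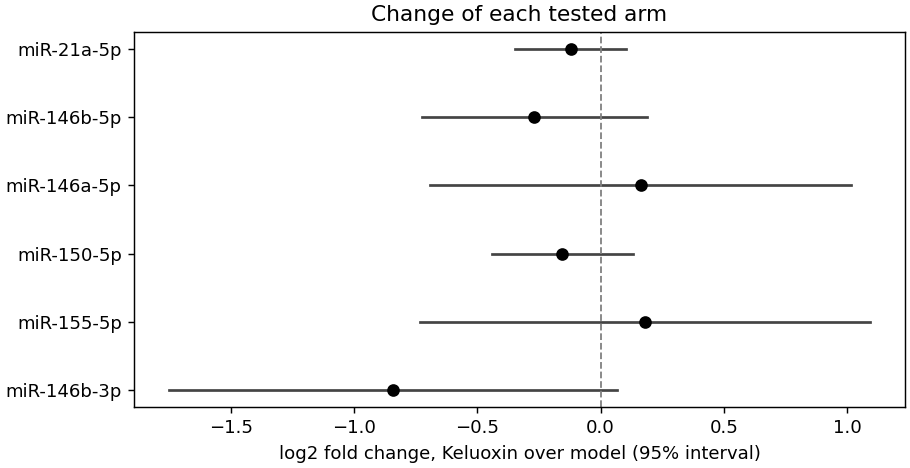
Log2 fold change of Keluoxin over model libraries for each tested member arm, with points for the edgeR estimate and lines for its 95% interval. Each interval includes 0, and the intervals of miR-146a-5p, miR-155-5p and miR-146b-3p are the widest.

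miR-150-5p, the lymphocyte miRNA, had a narrow range across libraries. It ran from 55.2 over a median of 67.6 to 72.2 CPM in model libraries and from 50.4 over 55.1 to 71.3 CPM in Keluoxin libraries. Keluoxin replicates 1 and 6 lie among the model values, and replicate 3, at 55.7 CPM, lies just above the lowest model value of 55.2 CPM. Keluoxin replicates 2, 4 and 5 lie below that value, at 50.4, 53.1 and 54.5 CPM. The log2 fold change was -0.16 with a standard error of 0.13, a 95% interval of -0.44 to 0.13 and an edgeR adjusted p of 0.393. miR-150-3p had 4 reads, all in model libraries.

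miR-155-5p, the activation marker of macrophages and lymphocytes, was scarce. It had 135 reads in 6 model libraries and 158 in 6 Keluoxin libraries, from 1.79 over a median of 4.13 to 6.44 CPM in model and from 0.991 over 4.73 to 8.81 CPM in Keluoxin libraries. The log2 fold change was 0.18 with a standard error of 0.42, a 95% interval of -0.73 to 1.09 and an edgeR adjusted p of 0.771. Keluoxin replicate 1 was the highest library and the estimate without it was -0.08. Of all 293 reads, 10 carried T12C (the base of the precursor first), among them both reads of Keluoxin replicate 5, and cytosine is the base that human miR-155-5p has there. Whether those reads come from mouse RNA was not tested. miR-155-3p had 2 reads, in 1 model library.

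miR-223, the myeloid miRNA, was at the edge of detection and was not tested. miR-223-3p had 8 reads in 2 model libraries and 20 reads in 4 Keluoxin libraries. miR-223-5p was listed in no model library and had 14 reads in 4 Keluoxin libraries. A sequence enters the files only with at least 2 reads, so a library listed at 0 may still hold single reads and no upper limit is given. In these bulk libraries, fewer cells of a type and less of its RNA per cell cannot be told apart.

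The order of the levels was the same at its top in every library. miR-21a-5p exceeded miR-146b-5p in 12 of 12 libraries, at a mean 10.7-fold higher. miR-146a-5p and miR-150-5p were neighbours whose ranges overlap, with a mean ratio of 1.35 and miR-146a-5p higher in 8 of 12 libraries. miR-150-5p exceeded miR-155-5p in 12 of 12 libraries, at a mean 13.9-fold higher, whereas miR-155-5p and miR-146b-3p overlap again, with miR-155-5p higher in 9 of 12. These are ratios of read counts, and ligation efficiency can differ between miRNAs.

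Of the other blood cell miRNAs, the erythroid arm miR-451a-5p passed and the pan-leukocyte arm miR-142a-5p did not. The pan-leukocyte arm miR-142a-5p averaged 11.98 ± 3.56 CPM in the model group and 16.4 ± 3.4 in the Keluoxin group (edgeR log2 fold change 0.45, standard error 0.22, adjusted p = 0.169). The erythroid arm miR-451a-5p stood at 31.5 ± 7.8 CPM in model libraries, and at 24.4, 34.6, 318, 353, 609 and 145.6 CPM in Keluoxin replicates 1 to 6. It rose by 2.97 on the log2 scale (standard error 0.68, edgeR adjusted p = 0.014), with replicates 1 and 2 inside the model range. The other erythroid arms tested, miR-486a-5p and miR-486b-5p, did not pass (edgeR adjusted p = 0.144 and 0.129). miR-223-3p had 13 reads in Keluoxin replicate 4, 6 in model replicate 2 and 2 or 3 in the other 4 libraries that list it, and the part of blood in these levels was not tested. With the miR-451a-5p level as a covariate, 0 member arms and 12 of the 789 arms passed. That level itself differs between the groups, so this fit cannot tell its part from that of the group, and fewer calls are no measure of blood content.

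**Figure D3:**
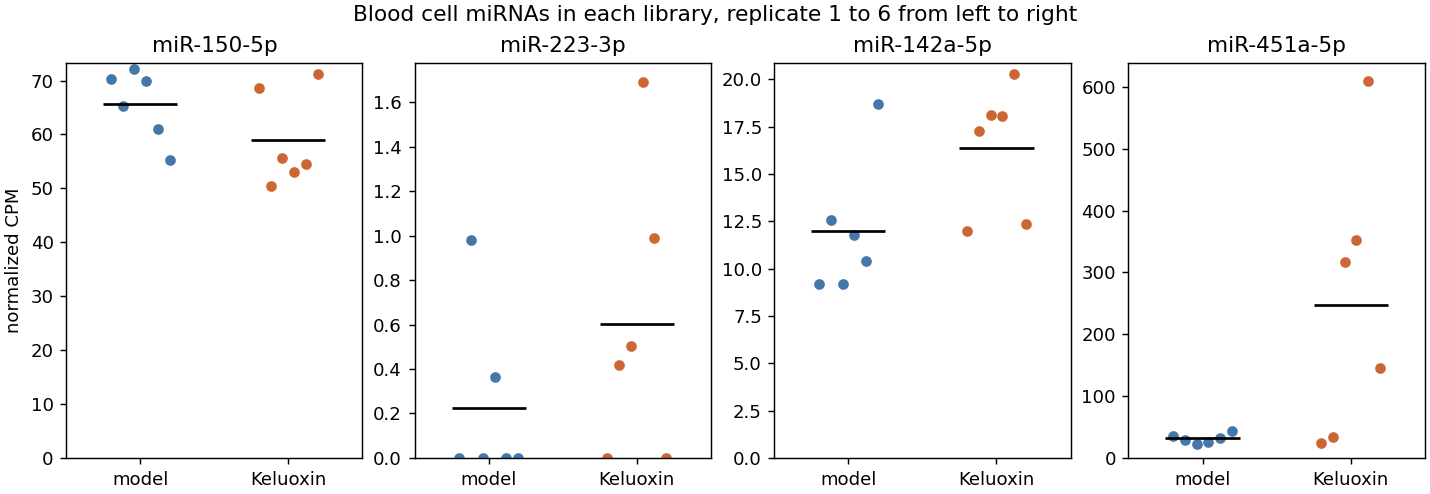
Normalized CPM of the lymphocyte arm miR-150-5p, the myeloid arm miR-223-3p, the pan-leukocyte arm miR-142a-5p and the erythroid arm miR-451a-5p in each library, with points for libraries in replicate order and bars for group means; each panel has its own axis. Keluoxin replicates 3 to 6 stand between 145.6 and 609 CPM for miR-451a-5p, while miR-150-5p stays between 50.4 and 72.2 CPM in all 12 libraries.

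A wider list of 31 precursors of miRNAs known to act in immune cells or in inflamed tissue was also read. It had 33 tested arms, of which 0 were higher and 2 were lower in Keluoxin, with a median log2 fold change of -0.14. Over all 789 arms, 18% passed and 75 were lower. Of these, 512 are arms of annotated precursors, as all arms of the list are. Among the 512, 18 were higher and 64 lower, with a median log2 fold change of -0.18. miR-125b-5p fell from 8687 ± 1589 to 5707 ± 615 CPM (log2 fold change -0.61, standard error 0.14, edgeR adjusted p = 0.013). miR-126a-3p, an endothelial miRNA that limits leukocyte adhesion, fell from 1694 ± 232 to 1038 ± 115 CPM (log2 fold change -0.71, standard error 0.12, edgeR adjusted p = 0.00402). The other arm of that hairpin, miR-126a-5p, did not fall and did not pass (log2 fold change 0.20, standard error 0.17, edgeR adjusted p = 0.388). It averaged 177 ± 44 CPM in model and 204 ± 33 CPM in Keluoxin libraries. The 3 most abundant arms of the list, miR-9-5p, miR-124-3p and miR-181a-5p, did not pass, with log2 fold changes of -0.31, -0.41 and -0.08. miR-9-5p and miR-124-3p are also on the neuronal marker list used here, and which cells carry the 3 arms was not tested. miR-124-3p passed without model replicate 1 (edgeR adjusted p = 0.0250), without Keluoxin replicate 4 (0.0446) and without both (0.0176). With libraries scaled by total reads the count was 1, as miR-125b-5p had an adjusted p of 0.0664, and with miR-451a-5p as a covariate it was 0. Without model replicate 1 it was 5 and without model replicate 2 it was 4.

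What did differ between the groups was the make-up of the reads. This was measured for the 4 member arms whose reads numbered 50 or more in each library. In all 4, more Keluoxin reads differed from the precursor by a base. Such reads include sequencing errors and bases added or exchanged at the 3′ end of a miRNA. Most arms of the series shifted in the same direction: of the 366 arms of the series that could be tested, 65% passed and 61.2% passed with a higher share in Keluoxin, so 4 of 4 is read against that background.

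For miR-21a-5p the share of reads with a difference ran from 31.2% over a median of 31.9% to 34.5% in model libraries and from 41.8% over 43.6% to 45.1% in Keluoxin libraries, without overlap. The log2 odds differed by 0.69 (standard error 0.06, limma adjusted p = 1.5e-05 over 366 arms). For miR-146b-5p it ran from 29.98% over 32.2% to 35.8% in model and from 38.4% over 44.6% to 47.6% in Keluoxin libraries, again without overlap. That difference was 0.72 (standard error 0.10, limma adjusted p = 0.000177). Over all 366 arms, 29.5% had every Keluoxin library above every model library.

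In the less abundant arms the shares rose as much but overlapped. For miR-150-5p the means were 34.3% ± 3.1 and 47.6% ± 5.3 (SD, n = 6 each), a difference of 0.80 in log2 odds (standard error 0.14, limma adjusted p = 0.000624), with Keluoxin replicate 1 below model replicate 6. For miR-146a-5p they were 32.6% ± 5.1 and 42.0% ± 4.1, a difference of 0.59 (standard error 0.16, limma adjusted p = 0.0072). When only reads that match a single arm were kept, the miR-146a-5p difference was 0.30 and did not pass (limma adjusted p = 0.328). The median difference over all 366 arms was 0.42.

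**Figure D4:**
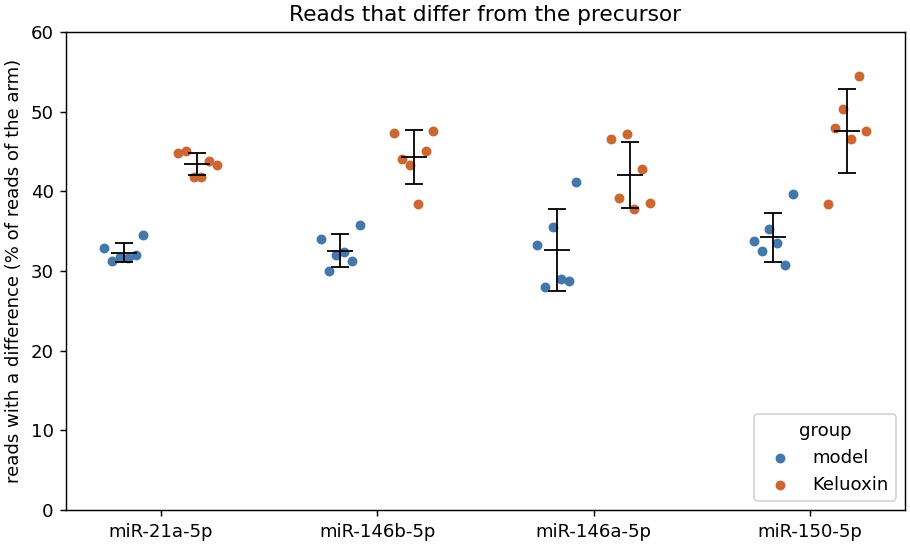
Share of the reads of 4 member arms that differ from the precursor by a base, with points for libraries and bars for the mean and SD of the 6 libraries of a group. Keluoxin libraries lie above all model libraries for miR-21a-5p and miR-146b-5p, and the groups overlap for miR-146a-5p and miR-150-5p.

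Some of the most frequent reads of miR-21a-5p and miR-146b-5p are shown as deposited, in DNA letters, with the seed and any differing last base in capitals.
miR-21a-5p, 22 nt: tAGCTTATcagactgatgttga
miR-21a-5p, 21 nt: tAGCTTATcagactgatgttg
miR-21a-5p, 21 nt, G21A: tAGCTTATcagactgatgttA
miR-146b-5p, 22 nt: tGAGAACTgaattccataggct
miR-146b-5p, 23 nt: tGAGAACTgaattccataggctg
miR-146b-5p, 22 nt, T22A: tGAGAACTgaattccataggcA
Positions count from 1 at the read's 5′ end, and the base of the precursor comes first. The full-length 22 nt read of miR-21a-5p made up 30.4% ± 1.5 of the arm's reads in model and 21.998% ± 1.764 in Keluoxin libraries (SD, n = 6 each), without overlap. Differing reads are part of that total, so their higher share lowers the summed share of reads without a difference, and the 2 results are not independent. The 21 nt read made up 21.3% ± 2.0 and 17.96% ± 2.56, and the G21A read 5.52% ± 0.78 and 6.27% ± 1.06, both with overlap.

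In miR-146b-5p the 22 nt read made up 23.1% ± 2.2 of reads in model and 24.02% ± 3.22 in Keluoxin libraries. The read with 1 more base of the precursor, at 23 nt, had 12.1% ± 1.2 and 6.99% ± 0.71, without overlap. The T22A read had 6.66% ± 0.71 and 7.70% ± 0.72, with overlap. Of the frequent reads not shown, the 24 nt read of miR-146b-5p had 14.2% ± 1.7 in model and 12.6% ± 2.3 in Keluoxin libraries. The 20 nt read of miR-21a-5p had 3.61% ± 0.66 and 4.70% ± 1.26. For miR-150-5p the 22 nt reads without a difference made up 40.8% ± 1.7 in model and 26.8% ± 4.8 in Keluoxin libraries. These sequences were singled out after their values were seen and were not tested one by one.

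The differing reads were then separated by where the difference lies. Differences at the last base of the read passed in 3 of 4 member arms, against 26.8% of the 366 arms in either direction. Those 3 were miR-21a-5p (23.7% ± 0.7 in model, 30.1% ± 2.8 in Keluoxin, limma adjusted p = 0.0069), miR-146b-5p (25.3% ± 2.2 and 33.7% ± 5.0, adjusted p = 0.0197) and miR-150-5p (31.3% ± 3.3 and 39.98% ± 5.06, adjusted p = 0.0248). For miR-146a-5p the values were 23.4% ± 3.5 and 28.1% ± 4.6 (limma adjusted p = 0.121). The miR-146b-5p difference did not pass without Keluoxin replicate 6 (adjusted p = 0.0510) or with reads that match a single arm (adjusted p = 0.204). The miR-150-5p difference did not pass without model replicate 2, model replicate 5 or Keluoxin replicate 3 (adjusted p 0.0577 to 0.0601). That of miR-146a-5p passed without model replicate 6 or Keluoxin replicate 4 (adjusted p 0.0472 and 0.0374).

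Differences elsewhere in the read passed in 4 of 4 member arms, against 59.6% of all arms. The share went from 8.60% ± 0.69 to 13.3% ± 1.9 in miR-21a-5p, from 7.28% ± 0.60 to 10.6% ± 1.9 in miR-146b-5p, from 9.27% ± 2.16 to 13.9% ± 2.6 in miR-146a-5p and from 2.95% ± 0.95 to 7.58% ± 3.30 in miR-150-5p (limma adjusted p 0.000783 to 0.0123). With reads that match a single arm, the miR-146a-5p value did not pass (adjusted p = 0.0940). Keluoxin replicate 4 stood apart in both classes, with the lowest Keluoxin share of last-base differences in all 4 arms and the highest share of other differences in 3 of them.

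Split by the base found at the end, most calls were of guanine and cytosine. A differing last guanine was higher in Keluoxin in 3 of 4 member arms and a differing last cytosine in 3 of 4, against 52.2% and 60.9% of all 366 arms. A differing last thymine was higher in 1 of 4 (miR-21a-5p, from 7.36% ± 0.45 to 9.06% ± 1.17, limma adjusted p = 0.0446, a call that, of the 12 fits leaving out 1 library, held without Keluoxin replicate 4 alone), against 15.3%, and a differing last adenine in 0 of 4, against 2.73%. Over all arms the median differences in log2 odds were 0.71 for guanine, 0.72 for cytosine, 0.03 for thymine and -0.19 for adenine. Adenine and uridine are the bases that cellular tailing enzymes mostly add to miRNA 3′ ends.

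For guanine, miR-150-5p went from 1.91% ± 0.58 of reads to 5.99% ± 2.98 (log2 odds difference 1.54, standard error 0.34, limma adjusted p = 0.0040). miR-146b-5p went from 3.47% ± 0.46 to 7.13% ± 2.11 (difference 1.05, standard error 0.23, limma adjusted p = 0.0040). miR-21a-5p went from 4.24% ± 0.64 to 6.33% ± 1.54 (difference 0.59, standard error 0.21, limma adjusted p = 0.0282), a call lost without model replicate 2, 3 or 4 or Keluoxin replicate 3 or 5 (adjusted p 0.0566 to 0.0638). miR-146a-5p had 4.15% ± 0.99 and 5.66% ± 1.496 (limma adjusted p = 0.117), which passed without Keluoxin replicate 4 (adjusted p = 0.0369).

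For cytosine, miR-21a-5p went from 1.59% to 2.88% in model libraries to 3.30% to 5.08% in Keluoxin libraries, without overlap (difference 1.01, standard error 0.19, limma adjusted p = 0.00279). miR-150-5p went from 3.46% ± 1.72 to 7.79% ± 2.64 (difference 1.24, standard error 0.32, adjusted p = 0.00756), and miR-146b-5p from 6.80% ± 1.88 to 10.8% ± 2.2 (difference 0.75, standard error 0.23, adjusted p = 0.0140). Each of these 3 passed in 12 of 12 fits that leave out 1 library, and that of miR-146b-5p did not pass with reads that match a single arm (adjusted p = 0.116). For adenine the shares were 10.1% ± 0.6 and 10.8% ± 0.8 in miR-21a-5p, 13.1% ± 0.9 and 13.2% ± 1.9 in miR-146b-5p, and 15.2% ± 2.6 and 15.5% ± 2.2 in miR-150-5p.

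**Figure D5:**
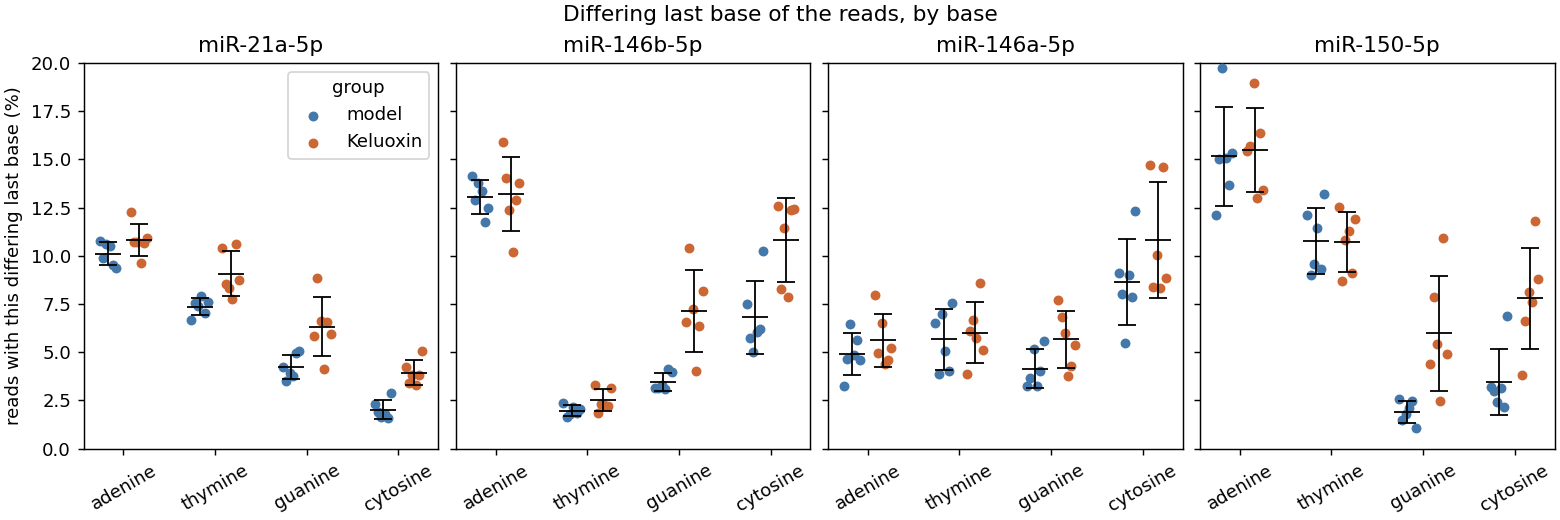
Share of the reads of each arm whose last base differs from the precursor, by the base found, with points for libraries and bars for the mean and SD of the 6 libraries of a group. Guanine and cytosine lie higher in Keluoxin for miR-21a-5p, miR-146b-5p and miR-150-5p, while adenine stays at 15.2% and 15.5% in miR-150-5p.

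The 5′ ends, which set the seed, did not pass. In each of the 4 arms and every library at least 99.2% of reads began at the arm's main start, and 0 of 4 arms passed the test of the start, against 3.83% of 366 arms. The mean read length did not pass in any of the 4 arms either, against 6.01%. It was 21.8 ± 0.1 nt in model and 21.7 ± 0.2 nt in Keluoxin libraries for miR-21a-5p, and 21.5 ± 0.2 and 21.7 ± 0.2 nt for miR-146a-5p (difference 0.25, limma adjusted p = 0.177). For miR-146b-5p it was 22.3 ± 0.1 and 22.4 ± 0.2 nt, and without Keluoxin replicate 4 the difference was 0.16 nt and passed (limma adjusted p = 0.0225).

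The patterns of the member arms over the 12 libraries were closest to those of different miRNAs. Pearson correlations of log2 CPM were computed with 358 annotated arms of at least 10 CPM and are given as descriptions, since all arms share the same libraries and scaling. For each member arm the 3 highest of 358 were picked, and over 12 libraries that choice alone favours high values. miR-155-5p had only 2 to 44 reads per library. miR-21a-5p was most like miR-135b-5p (r = 0.82), then miR-700-5p and miR-9-5p. miR-146b-5p was most like miR-217-5p (0.86), then miR-194-5p and miR-192-5p, and miR-146b-3p like let-7b-3p (0.88), miR-760-5p and miR-434-5p. miR-146a-5p was most like miR-199a-3p (0.77), miR-199b-3p and miR-10b-5p. miR-150-5p was closest to let-7f-1-3p (0.82), miR-3963-5p and miR-455-5p, and miR-155-5p to miR-2137-3p (0.79), miR-15b-3p and miR-339-3p.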

How the data were processed

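Small RNA libraries were made with the NEBNext kit for inserts of 15 to 35 nt and sequenced on a NextSeq 500, per the labels' protocols. Novoalign, Bowtie, cutadapt and bcl2fastq appear as tools in the submitters' processing notes, without roles. For versions, genome build and miRBase release, the sources used here name none. The deposited counts are whole reads per distinct sequence and precursor, not normalized, per the file headers, with at least 2 reads, 15 to 51 nt and at most 1 difference.

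The authors divided a count among the precursors a sequence matches; the undivided number kept in the sequence's name was used here and counted once per arm, the arm being set by the side of the precursor's middle. Reads of several annotated arms were shared equally, and predicted precursors kept only reads that match no annotated arm.

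Levels were tested with edgeR 4.0.16 (TMM, filterByExpr, quasi-likelihood) in R 4.3.3 over 789 arms, and read properties with limma 3.58.1 over arms with at least 50 reads per library, on log2 odds with 0.5 added, with Benjamini-Hochberg adjustment at 0.05. Strand choice used limma on precursors with at least 10 reads on each arm in at least 6 libraries. Normalized CPM are reads of an arm over the TMM-scaled library size. On simulated counts for the level comparison over 789 arms, 23.3%, 51.4% and 80.3% of arms changed 1.5-fold, 2-fold and 4-fold were recovered, with 2 unchanged arms called. Alternatives were RLE, upper quartile and total scaling, no filter, DESeq2 1.42.0, other rules for reads, a covariate, a replicate block and leaving out libraries. The separation of differing reads by position and base, miR-146 by base 18 and the joint leaving out of 2 libraries were added after the data were seen. The members and lists were chosen with earlier results of these data known. The text names all member arms, the passing and the 3 most abundant arms of the immune list, the 3 most similar arms per member, and marker miRNAs. Counting error alone does not cover PCR duplicates, as the reads carry no molecular identifiers.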

Additional observations from a re-analysis of the deposited data

Results flagged for a closer look

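In 88 groups of 6 libraries, 9 held a library far from the other 5 of its group; chance gives about 1 in 20 groups. Keluoxin replicate 4 was lowest in its group for last-base differences of miR-146b-5p, with 24.4% of reads against 33.4% in the next library, and highest for other differences of miR-21a-5p, with 17.0% against 13.6%. Model replicate 6 was highest for a differing last cytosine in miR-150-5p, with 6.88% of reads, and for the log2 ratio of 5p to 3p reads of mir-146b, with 8.99. Model replicate 3 had the shortest reads of miR-146a-5p, with a mean of 21.04 nt. The share of reads at the main start was 99.41% in model replicate 5 and 99.45% in Keluoxin replicate 1 for miR-146a-5p, and 99.36% in model replicate 1 and 99.51% in Keluoxin replicate 4 for miR-150-5p, where the other libraries of each group stood at 100%, so that a few reads set these 4 apart and the rate of 1 in 20 does not apply to them.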

How the results depend on the processing

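No member level passed under any of the 27 alternative settings (161 values, smallest adjusted p 0.0831). The count over all arms moved from 142 of 789 to 12 of 789 with miR-451a-5p as a covariate. With DESeq2 it was 223 of 1300. With annotated precursors only it was 68 of 509, where the main fit had 18 higher and 64 lower among 512 annotated arms. Leaving out 1 library gave 67 (without model replicate 4) to 246 (without model replicate 1). The number of arms tested differs between settings, so the counts alone cannot be compared. The immune list went from 2 to 1 with total reads, 0 with the covariate, 5 without model replicate 1 and Keluoxin replicate 4 together, and 2 to 5 leaving out 1 library. Upper quartile scaling put the median of all arms at -0.20 and total reads put it at 0.21, and estimates close to 0 changed sign. miR-146a-5p was at -0.00519 with upper quartile scaling, -0.388 with the covariate, -0.0242 with both libraries left out and -0.0949 to 0.491 leaving out 1. miR-150-5p was at 0.0955 with total reads and 2.5e-05 with annotated precursors only, miR-21a-5p at 0.120 and 0.0336, and miR-181a-5p at 0.163 and 0.0773, at 0.00055 with reads of 18 to 26 nt and at 0.0107 with both libraries left out. The cause of these changes was not tested.

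Leaving out 1 library, miR-155-5p lay at -0.0790 to 0.359, miR-181a-5p at -0.107 to 0.0011, the log2 odds of the main start at -0.0513 to 0.694 for miR-146a-5p and -0.679 to 0.00994 for miR-150-5p. The mir-146b strand ratio was -0.129 with reads without a difference. More differing reads were called in 3 to 4 of the 4 arms under each setting run. A last-base thymine was called in 1 arm, in 0 with a minimum of 20 reads or the replicate block, in 2 with reads of a single arm and in 0 to 1 leaving out 1 library. A differing last adenine was at -1.81 for miR-146a-5p and -0.141 for miR-146b-5p with reads of a single arm, and leaving out 1 library it lay at -0.0569 to 0.09001 for miR-146b-5p and -0.0281 to 0.138 for miR-150-5p; thymine lay at -0.0262 to 0.216 for miR-146a-5p and -0.0534 to 0.0726 for miR-150-5p.

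Whether the replicate numbers pair the libraries is not labelled and was not tested (correlations of same-numbered libraries 0.02 to 0.23, and 1 of 6 numbers correlated best with itself). With the replicate block 123 arms and 0 member levels passed, and the last-base guanine of miR-21a-5p did not (adjusted p 0.0537). The depth limits miR-155, miR-223 and the 3p arms, which rest on 2 to 293 reads.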

Other observations

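Inner bases of the scarce arms showed a recurrent difference, given here as values. In miR-155-5p, 10 of 293 reads carried T12C (3 reads in model replicate 5, and 2, 2 and 3 reads in Keluoxin replicates 3, 5 and 6), and these were the inner differences listed for that arm. In miR-21a-3p, 13 of 38 reads carried G6C, 5 and 2 in model replicates 2 and 6 and 2 each in Keluoxin replicates 1, 5 and 6. Positions are counted from 1 at the 5′ end, with the base of the precursor first. Both bases are those of the human orthologs, as background knowledge, and whether these reads come from mouse RNA was not tested.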
